A study of Mus musculus with 12 samples.

Results

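The genes described here encode splicing factors and heterogeneous nuclear ribonucleoproteins (hnRNPs). They are the rows of the count table whose symbol begins with Srsf and a digit, Hnrnp, Sf3a or Sf3b and a digit, Snrp, or U2af. Of 59 such rows, 3 with a pseudogene suffix (Hnrnpa1l2-ps, Hnrnpa1l2-ps2 and Srsf3-ps) were left out. The remaining 56 of 24561 genes comprised 20 hnRNP genes, 13 Snrp genes, 11 SR protein genes, 9 SF3a and SF3b genes and 3 U2af genes. Of these, 52 had enough counts to be tested.

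The study asked what BCL6 controls in follicular helper T (Tfh) cells, which give help to B cells in the germinal center response. OT-II T cells, which carry a transgenic receptor for an ovalbumin peptide, were transferred into Sap-/- recipients that were then immunized subcutaneously with NP-OVA and LPS in alum. CXCR5hi PD-1hi Tfh cells were sorted from the draining lymph nodes 3 days later. The cells labelled HET had the genotype CD4-Cre x Bcl6 fl/+, in which Cre acts in T cells and can delete 1 of the alleles, and the cells labelled WT carried CD4-Cre alone. Both were C57BL/6. There were 3 recipient mice per genotype and 2 technical repeats of about 200 cells per mouse, 12 SMART-Seq2 libraries in all, and the repeats were summed for each mouse. Ages and the number of donor animals are not given in the sources used here, so that donor and genotype cannot be told apart where 1 donor supplied a group, and p-values measure the spread between these recipient mice. In bulk samples of this kind, fewer cells of a type and less RNA per cell cannot be told apart.

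Most mammalian genes are transcribed with introns, which the spliceosome removes. U1 small nuclear ribonucleoprotein (snRNP) recognizes the start of an intron, the U2AF heterodimer binds the pyrimidine-rich tract and the AG at its end, and U2 snRNP, of which the SF3a and SF3b complexes are parts, then settles on the branch point. Each spliceosomal snRNP made by RNA polymerase II carries a ring of Sm proteins, which most of the Snrp genes encode. SR proteins bind exons and in general favour their inclusion, whereas many hnRNPs coat the transcript and often favour skipping, and several also control export, stability or translation of mRNA. In activated T cells this machinery is best known for the skipping of variable exons of Ptprc (CD45), in which hnRNP L and its paralog hnRNP LL take part.

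Library totals ranged from 3343375 to 8315722 counts and totals per mouse from 10098419 to 14002507 counts, so that every tested member had at least 2151 counts over the 6 mice. Bcl6, the targeted gene, was higher in the mice labelled HET. Its level was 150, 146 and 150 normalized CPM (counts scaled to a common library size and composition) in the mice labelled HET and 54.8, 75.6 and 56.9 normalized CPM in the mice labelled WT. The count covers the whole gene and does not distinguish the deleted part, and every direction given here rests on the labels as deposited. T cell markers were present throughout, with summed levels of 8248 to 8949 CPM (scaled by the library total alone) over 5 genes in the mice labelled HET and 5894 to 7378 CPM in those labelled WT. Most of that sum was Trac, which was called higher, while Cd4 was called lower. The 8 Tfh markers summed to 1583 to 1627 CPM and 1640 to 1667 CPM in the same order, and 2 of them (Icos and Bcl6) were higher and 3 (Cxcr5, Pdcd1 and Tox2) lower in the mice labelled HET. B cell markers summed to 497 to 709 CPM and 615 to 868 CPM, most of it Ighm, with Ms4a1 and Pax5 at or below 1.32 CPM in every mouse and 0 of the 6 tested markers called. HET mouse 2 and WT mouse 3 stood apart from the other 4 mice in Cd74, Igkc, H2-Aa, Cd79a and Cd79b, with Cd74 at 52.2 and 38.8 CPM against 4.14 to 10.99, Igkc at 13.1 and 11.3 against 0.0882 to 1.78, and Cd79a at 10.6 and 7.87 against 0.0882 to 1.78. Myeloid markers summed to 15.1 to 27.9 CPM and 7.63 to 10.95 CPM, with Lyz2 called higher. Markers of CD8 T and natural killer cells summed to 26.3 to 34.4 CPM and 30.5 to 41.1 CPM, with Cd8a at 0 in 5 of the 6 mice. Cd8b1 made up most of the latter sum and was not called, with a log2 fold change of -0.40. Nkg7 was called higher, although its groups overlapped, at 2.14 to 9.33 CPM against 0.754 to 3.24 CPM. The Treg markers Foxp3 and Ikzf2 summed to 161 to 187 CPM and 95.5 to 151 CPM, most of it Ikzf2, which was called higher. Foxp3 went the other way, at 2.35 to 4.16 CPM in the mice labelled HET against 4.70 to 5.94 CPM. Its groups did not overlap, but it was not called, with a log2 fold change of -0.58. Proliferation genes summed to 5884 to 6079 CPM and 5796 to 6241 CPM, with Mki67 and Top2a of 13 called higher and Mcm4, Mcm5, Mcm6 and Mcm7 called lower. Mitochondrial transcripts took 2.31% to 2.76% of the counts in the mice labelled HET and 1.81% to 2.33% in those labelled WT. The part of these shifts in the results below was not tested.

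The splicing genes were split between both directions rather than shifted together. Of the 52 tested members, 14 were higher and 15 lower in the mice labelled HET at an adjusted p under 0.05 (edgeR quasi-likelihood test with Benjamini-Hochberg adjustment over 12719 genes), and 23 did not pass. Over all genes tested, 9.17% were higher and 8.82% lower, against 26.9% and 28.8% of the members. The split was 6 and 10 with technical repeat 1 alone, 7 and 15 on the log2(TPM + 1) scale and 6 and 15 on the log2(TPM + 0.1) scale, with 9 higher without WT mouse 1, 9 lower without WT mouse 3, and 11 and 6 without HET mouse 2 and WT mouse 3 together. The members were also more abundant than most genes, with a median of 184 normalized CPM against 17.7, and their fold changes had a smaller standard error, with a median of 0.10 against 0.21 on the log2 scale. Among genes of at least 100 normalized CPM, where the median error was 0.10 for 1584 other genes as well, 42.0% of the others and 52.3% of 44 members were called in either direction. Over the whole range of levels that the members cover, the shares were 31.2% of 4608 others and 55.8% of 52 members, and the median error of the others was 0.13. The 3 mice of a group did not overlap with the 3 of the other for 17 members that were higher and 21 that were lower in the mice labelled HET, where 17.4% and 17% of all genes did so. The median log2 fold change of the members was -0.10 and that of all genes 0.01.

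**Figure D1:**
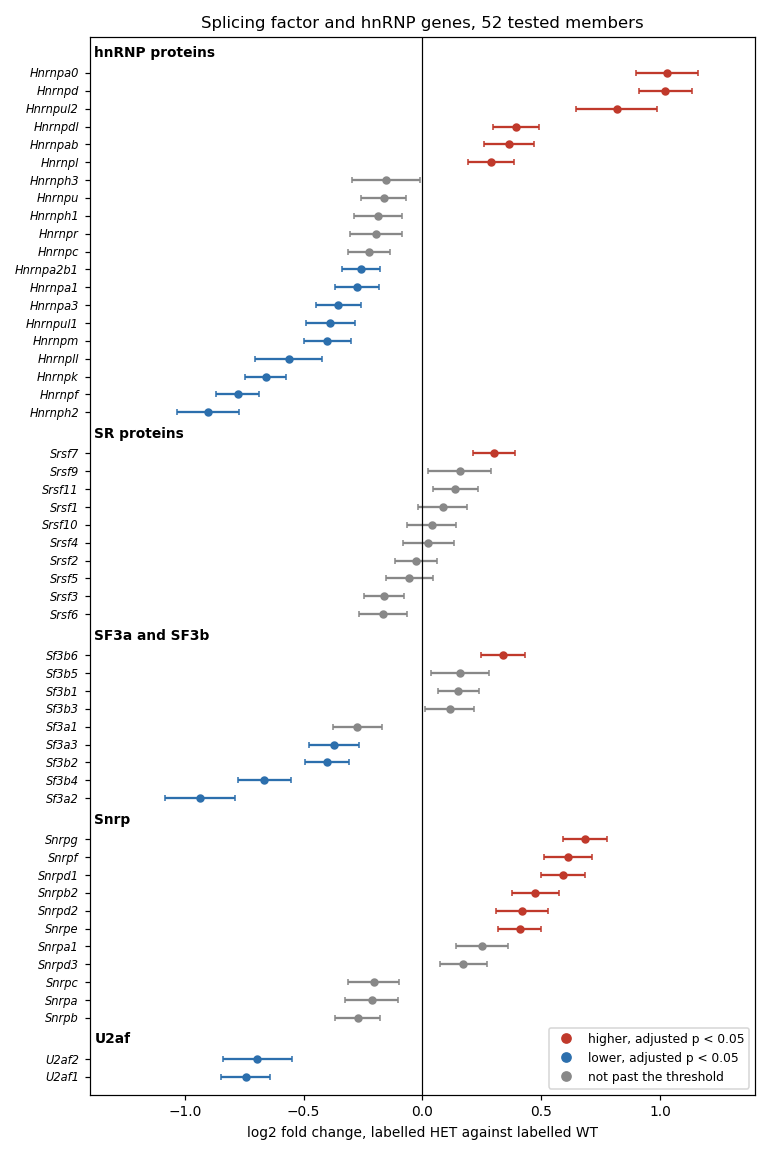
Log2 fold change of each of the 52 tested members, mice labelled HET against mice labelled WT, with its standard error (bars, n = 3 mice per group), ordered by size within each family. Red points were higher and blue points lower at an adjusted p under 0.05 (edgeR); hnRNP genes spread from -0.90 to 1.03, Snrp genes lie mostly to the right of 0, and both U2af genes lie to the left.

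The hnRNP genes held the greatest number of calls. Of 20 tested, 6 were higher (Hnrnpd, Hnrnpa0, Hnrnpul2, Hnrnpdl, Hnrnpab and Hnrnpl) and 9 lower (Hnrnph2, Hnrnpf, Hnrnpk, Hnrnpll, Hnrnpm, Hnrnpul1, Hnrnpa3, Hnrnpa1 and Hnrnpa2b1) in the mice labelled HET, with a median log2 fold change of -0.21. These counts moved with the processing, to 5 higher and 4 lower without WT mouse 3, 2 higher and 6 lower with technical repeat 1 alone, and 6 higher and 13 lower with trends of GC content and length removed. Upstream sequence is printed for 4 of them, to show the promoters of members that moved in opposite directions. These were the only ones, among 20 called members with a single RefSeq start, whose 250 bases before the start held no annotated exon of any gene. Hnrnpa0 (chr13:58128557-58128806, minus strand) and Hnrnpab (chr11:51606882-51607131, minus strand) were higher in the mice labelled HET, and Hnrnpa1 (chr15:103240147-103240396, plus strand) and Hnrnpul1 (chr7:25754760-25755009, minus strand) were lower. The sequences are from RefSeq, build GRCm38.p6, 5′ to 3′ on the strand of the gene, and capitals mark matches on either strand to CCAAT (the box bound by NF-Y), GGGCGG (the GC box bound by Sp1 and related factors) or AAGATGGC (the letters bound by YY1).
Hnrnpa0: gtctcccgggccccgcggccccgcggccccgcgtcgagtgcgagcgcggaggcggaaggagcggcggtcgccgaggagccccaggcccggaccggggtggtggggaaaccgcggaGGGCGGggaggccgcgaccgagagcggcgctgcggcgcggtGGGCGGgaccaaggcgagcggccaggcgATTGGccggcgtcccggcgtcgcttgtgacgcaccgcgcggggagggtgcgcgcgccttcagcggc
Hnrnpab: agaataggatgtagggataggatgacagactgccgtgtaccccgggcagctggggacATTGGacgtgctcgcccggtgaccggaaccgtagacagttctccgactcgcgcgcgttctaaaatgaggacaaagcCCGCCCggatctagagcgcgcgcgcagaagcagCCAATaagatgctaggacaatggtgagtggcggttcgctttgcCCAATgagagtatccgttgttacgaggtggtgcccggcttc
Hnrnpa1: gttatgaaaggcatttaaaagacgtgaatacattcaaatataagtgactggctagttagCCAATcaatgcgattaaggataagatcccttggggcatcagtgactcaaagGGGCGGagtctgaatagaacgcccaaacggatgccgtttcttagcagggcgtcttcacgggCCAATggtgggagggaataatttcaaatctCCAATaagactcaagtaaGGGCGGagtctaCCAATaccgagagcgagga
Hnrnpul1: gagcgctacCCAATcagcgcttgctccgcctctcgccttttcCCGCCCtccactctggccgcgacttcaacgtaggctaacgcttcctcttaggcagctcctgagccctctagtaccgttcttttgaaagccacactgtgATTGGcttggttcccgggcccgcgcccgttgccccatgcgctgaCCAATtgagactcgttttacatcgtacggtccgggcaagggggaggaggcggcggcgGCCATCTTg
The GC content of these 250 bases ran from 46.0% in Hnrnpa1 to 81.2% in Hnrnpa0. Each of the 4 held at least 1 CCAAT match and at least 1 GGGCGG match, whichever way the gene moved.

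The same letters were common among promoters in general. Windows from 250 bases before to 50 bases after a start were given for 48 of the 56 members and for 8825 of the tested genes, with any window of a gene counted. CCAAT was found in 50% of the members and 43.7% of the tested genes, and GGGCGG in 70.8% and 68.6%. CCGGAAGN, the letters bound by ETS factors, occurred in 33.3% of the members and 22.4% of the tested genes. TATAAA occurred in 14.6% and 8.39%, and CACGTG, the E-box of MYC and USF factors, in 12.5% and 12%. AAGATGGC occurred in 4.17% and 5.81%. TTCCNNGAA, letters that BCL6 and STAT factors can bind, occurred in 3 members (Hnrnpa2b1, Hnrnpr and Sf3b6), which is 6.25%, against 5.43% of the tested genes. Matches on both strands were counted, those of CCGGAAGN and TTCCNNGAA can overlap, and a match is a run of letters and not a site. Among the members with a window, CCAAT was found in 5 of 12 that were higher and 9 of 12 that were lower, and GGGCGG in 9 of 12 and 7 of 12.

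Hnrnpd (chr5:99955935-99978938, minus strand, gene bounds from GENCODE M21 on GRCm38 here and below), also known as AUF1, binds AU-rich elements and takes part in the decay of cytokine and other short-lived mRNAs. It stood at 194, 193 and 179 normalized CPM in the mice labelled HET and at 91.8, 108 and 79.6 in those labelled WT. All 3 values of the first group were above all 3 of the second, and the log2 fold change was 1.02 ± 0.11 (SE, adjusted p = 2.21e-06, edgeR), the smallest p among the members. Hnrnpa0 (chr13:58125879-58128556, minus strand), which binds AU-rich elements as well and is a target of stress kinases, was at 78.0, 66.5 and 67.0 normalized CPM in the mice labelled HET and at 33.5, 35.5 and 34.8 in those labelled WT. Its log2 fold change of 1.03 ± 0.13 (SE, adjusted p = 1.11e-05, edgeR) was the largest of the members. Hnrnpul2 (chr19:8820010-8834143, plus strand), a relative of hnRNP U with a part in the DNA damage response, was at 47.3, 33.9 and 34.6 against 22.5, 23.2 and 20.2 normalized CPM. It was the least abundant tested member, and the log2 fold change of 0.82 ± 0.17 (SE, adjusted p = 0.00178, edgeR) varied from 0.52 in the first technical repeats, where it did not pass, to 1.04 in the second.

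Among the hnRNP genes that were lower, Hnrnpf, Hnrnpk and Hnrnph2 had the smallest p. Hnrnpf (chr6:117900324-117925622, plus strand), which binds runs of G, was at 229, 246 and 247 normalized CPM in the mice labelled HET and at 389, 414 and 434 in those labelled WT. The groups did not overlap, and the log2 fold change was -0.78 ± 0.09 (SE, adjusted p = 4.17e-06, edgeR). Its close relative Hnrnph2 (chrX:134601179-134607060, plus strand) was at 34.9, 32.5 and 37.8 against 66.8, 61.8 and 67.7 normalized CPM. The 3 mice labelled HET were close together and well below the others, with a log2 fold change of -0.90 ± 0.13 (SE, adjusted p = 5.91e-05, edgeR). The other members of that subfamily, Hnrnph1 and Hnrnph3, had log2 fold changes of -0.19 ± 0.10 and -0.15 ± 0.14 (SE) and did not pass. Hnrnpk (chr13:58391142-58403343, minus strand), which binds runs of C and acts in transcription as well as in splicing and translation, was at 490, 526 and 524 normalized CPM in the mice labelled HET and at 813, 785 and 833 in those labelled WT. The gap between the groups was wider than the range within either, and the log2 fold change was -0.66 ± 0.08 (SE, adjusted p = 1.45e-05, edgeR).

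Hnrnpl and Hnrnpll, the pair with a known role in CD45 exon skipping, were called in opposite directions. Hnrnpll, which is induced when T cells are activated, was at 47.2, 38.6 and 54.8 normalized CPM in the mice labelled HET and at 63.0, 66.4 and 78.0 in those labelled WT, with a log2 fold change of -0.56 ± 0.14 (SE, adjusted p = 0.00699, edgeR). The call was lost without HET mouse 2 (-0.44) or WT mouse 3 (-0.47), in technical repeat 2 alone (-0.40) and on both log2(TPM) scales (-0.62 and -0.69). The groups did not overlap. Hnrnpl was at 198, 213 and 211 against 164, 182 and 162 normalized CPM, with a log2 fold change of 0.29 ± 0.10 (SE, adjusted p = 0.0397, edgeR). This is the weakest call among the members that were higher, and it was lost in each of the 6 fits that left out a mouse, in which the log2 fold change ran from 0.25 to 0.33, as well as in each technical repeat alone, on both log2(TPM) scales and with a filter of at least 1 count.

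Hnrnpa2b1, Hnrnpa3 and Hnrnpa1 were lower by smaller amounts. Hnrnpa2b1, the most abundant member by count, was at 1268, 1402 and 1351 normalized CPM in the mice labelled HET and at 1563, 1597 and 1645 in those labelled WT, a log2 fold change of -0.26 ± 0.08 (SE). Hnrnpa3 differed by -0.35 ± 0.10 and Hnrnpa1 by -0.27 ± 0.09 (log2, SE). Reads of Hnrnpa1 can be shared with its retrocopies, so its value is uncertain. Of these, Hnrnpa1 kept its call in 2 of the 6 fits that left out a mouse, Hnrnpa2b1 in 3 and Hnrnpa3 in 5. Hnrnpa1 and Hnrnpa2b1 did not pass with upper-quartile scaling either, Hnrnpa1 had -0.16 in technical repeat 1 alone and Hnrnpa2b1 -0.15 in technical repeat 2 alone, neither of which passed. Nor did Hnrnpa3 (-0.29) in technical repeat 1 alone. Hnrnpm and Hnrnpul1 were lower too, with log2 fold changes of -0.40 ± 0.10 and -0.39 ± 0.10 (SE). Hnrnpm did not pass in technical repeat 1 alone (-0.37). Hnrnpul1 did not pass without HET mouse 2 (-0.34), without WT mouse 3 (-0.35) or in technical repeat 2 alone (-0.29). Hnrnpab and Hnrnpdl, relatives of Hnrnpd, were higher with log2 fold changes of 0.36 ± 0.11 and 0.39 ± 0.10 (SE). Hnrnpdl did not pass in technical repeat 1 alone (0.28) or on either log2(TPM) scale (0.25 and 0.26). Without HET mouse 3, which had 841 normalized CPM of Hnrnpab against 626 and 653 in the other two, that log2 fold change was 0.22 and did not pass. Nor did it pass without WT mouse 1 (0.31) or WT mouse 2 (0.31), in technical repeat 1 alone (0.10), on the log2(TPM + 1) scale (0.21) or on the log2(TPM + 0.1) scale. The remaining hnRNP genes, Hnrnpc, Hnrnph1, Hnrnph3, Hnrnpr and Hnrnpu, had log2 fold changes between -0.22 and -0.15 and did not pass by edgeR. Hnrnpc was called lower by DESeq2, with the replicate block and on both log2(TPM) scales. The strand setting of the counting is not given in the sources used here, and without strand the reads of overlapping genes cannot be told apart. Exons of other genes, most on the opposite strand, covered 29.1% of the exon bases of Hnrnpab (Phykpl), 26.5% of Hnrnpf (4933440N22Rik) and 14.7% of Hnrnpm (March2, same strand). Phykpl was called higher, as Hnrnpab was, and 4933440N22Rik lower, as Hnrnpf was.

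**Figure D2:**
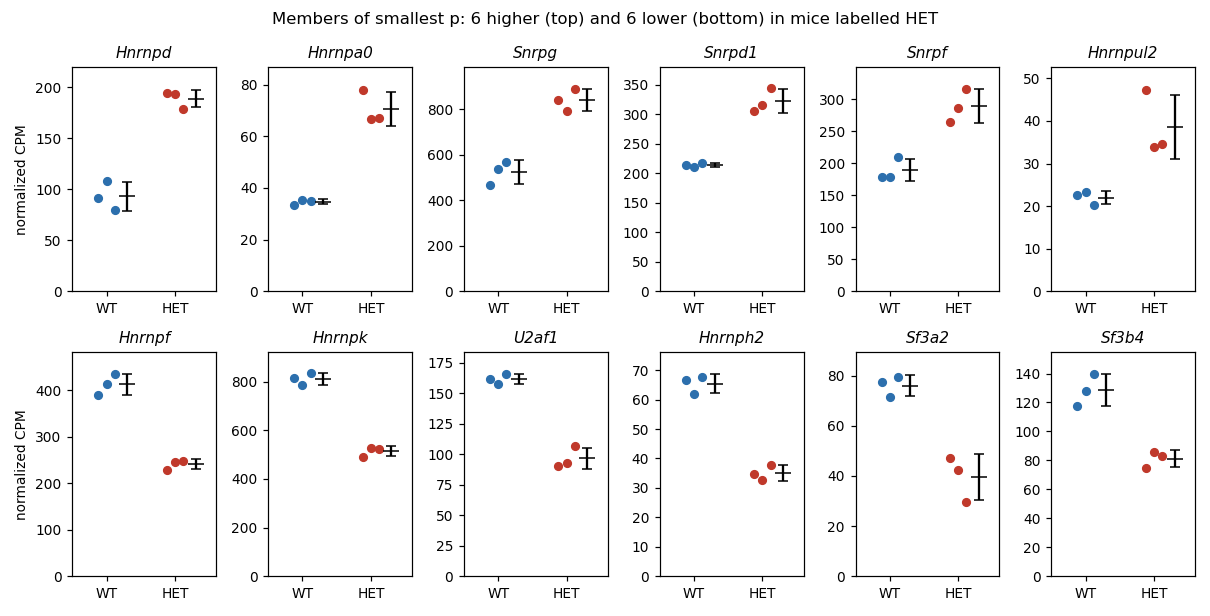
Normalized CPM of the 6 members of smallest p in each direction, by mouse (points) with the mean and SD of each group beside them (black, n = 3 mice per group); WT and HET are the deposited labels and each axis starts at 0. In all 12 panels the points of the mice labelled HET lie wholly above (top row) or wholly below (bottom row) those of the mice labelled WT.

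Both tested subunits of U2AF, which marks the 3′ end of introns, were lower in the mice labelled HET. U2af1 (chr17:31647081-31658892, minus strand), the small subunit that reads the AG, was at 90.6, 92.9 and 107 normalized CPM in the mice labelled HET and at 162, 157 and 166 in those labelled WT, with a log2 fold change of -0.74 ± 0.10 (SE, adjusted p = 4.06e-05, edgeR). U2af2, the large subunit that binds the pyrimidine tract, was at 57.9, 40.7 and 44.5 against 78.5, 65.6 and 88.0 normalized CPM. Neither gene overlapped between the groups, and the log2 fold change of U2af2 was -0.69 ± 0.14 (SE, adjusted p = 0.00167, edgeR). The ratio of U2af1 to U2af2 within a mouse was 2.08 ± 0.449 in the mice labelled HET and 2.12 ± 0.260 in those labelled WT (SD, n = 3), and its values overlapped. The related gene U2af1l4 had 27 counts over the 6 mice and was not tested.

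The SF3a and SF3b genes, which encode the U2 snRNP proteins that hold the branch point, were mixed. Of 9 tested, Sf3b6 was higher, Sf3a2, Sf3a3, Sf3b2 and Sf3b4 were lower, and Sf3a1, Sf3b1, Sf3b3 and Sf3b5 did not pass by edgeR, with a median log2 fold change of -0.27. Sf3a2 (chr10:80798198-80804924, plus strand) was at 47.1, 42.2 and 29.4 normalized CPM in the mice labelled HET and at 77.4, 71.4 and 79.3 in those labelled WT. HET mouse 3 was the lowest, yet none of the 3 reached the WT range, and the log2 fold change was -0.94 ± 0.15 (SE, adjusted p = 0.00014, edgeR). Exons of Plekhj1 on the opposite strand covered 16.1% of its exon bases. Sf3b4 (chr3:96172332-96177564, plus strand), which binds U2 snRNP to the pre-mRNA next to the branch point, was at 74.5, 85.9 and 83.3 against 118, 128 and 140 normalized CPM. Its log2 fold change was -0.66 ± 0.11 (SE, adjusted p = 0.000219, edgeR), and those of its partner Sf3b2 and of Sf3a3 were -0.40 ± 0.09 and -0.37 ± 0.10 (SE). The call of Sf3a3 was lost without HET mouse 1, WT mouse 1 or WT mouse 3, with log2 fold changes of -0.45 to -0.31 over the 6 such fits, and also in each technical repeat alone (-0.26 and -0.42) and on both log2(TPM) scales. Sf3b2 did not pass in technical repeat 1 alone (-0.34).

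Sf3b6, the small SF3b subunit found near the branch point adenosine, went the other way. It was at 247, 241 and 259 normalized CPM in the mice labelled HET and at 196, 203 and 192 in those labelled WT, a log2 fold change of 0.34 ± 0.09 (SE, adjusted p = 0.013, edgeR), which did not pass without WT mouse 1 or WT mouse 3, in technical repeat 1 alone (0.24) or on either log2(TPM) scale (0.20 and 0.21). Sf3b1, the large scaffold of the complex, was at 585, 638 and 586 against 557, 554 and 517 normalized CPM. These groups did not overlap, but the difference did not pass the test, with a log2 fold change of 0.15 (95% confidence interval -0.03 to 0.33). All 3 subunits of SF3a had negative log2 fold changes, from -0.94 to -0.27, and Sf3a1 was at -0.27 ± 0.10 (SE, adjusted p = 0.0688, edgeR), which DESeq2 and both log2(TPM) scales called lower.

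The Snrp genes were mostly higher in the mice labelled HET. Of 11 tested, 6 were higher (Snrpg, Snrpf, Snrpd1, Snrpb2, Snrpd2 and Snrpe) and 0 lower by edgeR, with a median log2 fold change of 0.41. That median was 0.27 without HET mouse 3 and 0.26 with technical repeat 1 alone. There were 4 higher with technical repeat 1 alone, without Snrpb2 and Snrpd2, 4 on the log2(TPM + 1) scale, without Snrpd2 and Snrpe, and 3 on the log2(TPM + 0.1) scale, namely Snrpd1, Snrpf and Snrpg. Snrpe did not pass in technical repeat 2 alone either. At an unadjusted p under 0.05 there was 1 lower gene, Snrpb. It was called lower by DESeq2, and by edgeR with a filter of at least 1 count, with the replicate block, without HET mouse 3 and without WT mouse 2. Of the 7 tested genes of the Sm ring, 5 were higher (Snrpd1, Snrpd2, Snrpe, Snrpf and Snrpg). Snrpg (chr6:86371304-86379328, plus strand) was the most abundant member per kilobase of exon and stood at 841, 792 and 890 normalized CPM in the mice labelled HET and at 466, 536 and 570 in those labelled WT. The lowest mouse labelled HET was above the highest labelled WT, and the log2 fold change was 0.68 ± 0.09 (SE, adjusted p = 2.87e-05, edgeR). Snrpd1 was at 305, 316 and 344 against 213, 210 and 217 normalized CPM, with a log2 fold change of 0.59 ± 0.09 (SE, adjusted p = 0.000122, edgeR). Snrpf (chr10:93583029-93589706, minus strand) was at 264, 287 and 316 against 179, 179 and 209 normalized CPM, with a log2 fold change of 0.61 ± 0.10 (SE, adjusted p = 0.000215, edgeR). Its reads are the least certain of these, since exons of Ccdc38 on the opposite strand covered 85.4% of its exon bases and Ccdc38 was called higher as well (0.63 ± 0.10, log2, SE). Snrpd2 and Snrpe had log2 fold changes of 0.42 ± 0.11 and 0.41 ± 0.09 (SE), and Snrpd2 did not pass without HET mouse 3 (0.27) or WT mouse 1.

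The remaining ring members did not pass. Snrpb, which encodes SmB, was at 385, 448 and 466 normalized CPM in the mice labelled HET and at 518, 481 and 570 in those labelled WT, with a log2 fold change of -0.27 ± 0.10 (SE, adjusted p = 0.0518, edgeR), and Snrpd3 had 0.17 ± 0.10 (SE). Snrpn, which encodes a close relative of SmB made mainly in neurons, had 1 count over the 6 mice. Among the genes for proteins specific to U1 or U2 snRNP, Snrpb2 was higher (U2, log2 fold change 0.48 ± 0.10, SE). Snrpa1 (U2, 0.25 ± 0.11), Snrpa (U1, -0.21 ± 0.11) and Snrpc (U1, -0.21 ± 0.11) did not pass (log2 fold change, SE). Snrpa was called lower without HET mouse 3, and Snrpa1 was called higher with technical repeat 2 alone. Snrpert, annotated as a processed pseudogene, had 35 counts and was not tested.

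The SR protein genes differed least between the labelled genotypes. Of 10 tested, Srsf7, whose protein also acts in mRNA export, was higher, at 519, 492 and 531 against 387, 450 and 415 normalized CPM, with a log2 fold change of 0.30 ± 0.09 (SE, adjusted p = 0.022, edgeR). The call was lost without HET mouse 1, WT mouse 1 or WT mouse 3, in technical repeat 1 alone (0.20) and on both log2(TPM) scales (0.19 on each). Srsf1, the founding SR protein, was at 189, 176 and 204 against 159, 196 and 181 normalized CPM. The groups overlapped, and the 95% confidence interval of its log2 fold change of 0.09 was -0.13 to 0.30. Srsf2, the most abundant SR gene per kilobase of exon, was at 473, 438 and 436 against 436, 453 and 485 normalized CPM, with a log2 fold change of -0.03 (95% confidence interval -0.21 to 0.16). Exons of Mettl23, itself called higher, on the opposite strand covered 25.3% of its exon bases. Srsf3, which promotes export and the use of distal polyadenylation sites, was at 481, 486 and 484 against 543, 543 and 538 normalized CPM. Its groups were tight and did not overlap, but the difference was small, with a log2 fold change of -0.16 (95% confidence interval -0.34 to 0.01) that did not pass. The other 6 tested genes, Srsf4, Srsf5, Srsf6, Srsf9, Srsf10 and Srsf11, ranged from -0.16 to 0.16 on the log2 scale. Srsf12 had 7, 2 and 5 counts in the mice labelled WT and 0 in each labelled HET, which is below the depth needed for a test.

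The shares of all counts were also summed over each family. The members together took 1.34% ± 0.0385 of the counts of a mouse labelled HET and 1.42% ± 0.0567 of one labelled WT (SD, n = 3). The hnRNP genes took 0.535%, 0.572% and 0.562% in the mice labelled HET and 0.649%, 0.632% and 0.696% in those labelled WT, a ratio of means of 0.844. The Snrp genes took 0.305%, 0.320% and 0.338% against 0.262%, 0.257% and 0.282%, a ratio of 1.20. For both families the groups were apart, as they were on this measure for the other families and for all members together. The U2af genes took 0.0142% ± 0.000713 against 0.0244% ± 0.00201 (SD, n = 3), a ratio of 0.583. The SF3a and SF3b genes took 0.180% ± 0.00487 against 0.195% ± 0.00705, and the SR genes 0.269% ± 0.00181 against 0.275% ± 0.00360 (SD, n = 3). On the TMM-scaled library total, an alternative chosen after seeing the data, the groups overlapped for all members together, for the SR genes and for the SF3a and SF3b genes. They stayed apart for the hnRNP, Snrp and U2af genes, with ratios of means of 0.875, 1.25 and 0.605. No test was run on these sums.

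**Figure D3:**
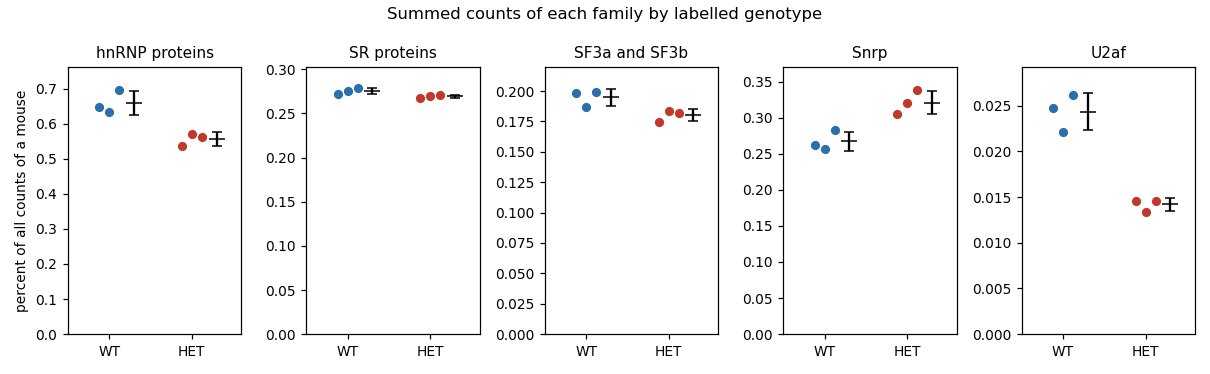
Percent of all counts of a mouse that fell on each of the 5 families, by mouse (points) with the mean and SD of each group (black, n = 3 mice per group); each axis starts at 0 and WT and HET are the deposited labels. In all 3 mice labelled HET the Snrp share is higher, and the shares of the other families lower, than in any mouse labelled WT. On the TMM-scaled library total, the groups overlap for the SR genes and for the SF3a and SF3b genes.

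Ratios between related genes within a mouse do not depend on how libraries are scaled. The pairs were picked after the values were known, and the ratios are given as a description. Hnrnpl over Hnrnpll was 4.19, 5.51 and 3.86 in the mice labelled HET and 2.61, 2.75 and 2.08 in those labelled WT. Snrpg over Snrpb, both parts of the Sm ring, was 2.18, 1.77 and 1.91 against 0.900, 1.11 and 1.001. Snrpd1 over Snrpb was 0.746 ± 0.0441 against 0.410 ± 0.0280 (SD, n = 3). Sf3b6 over Sf3b4 was 3.08 ± 0.258 against 1.54 ± 0.152, and Hnrnpul2 over Hnrnpul1 was 0.345 ± 0.0440 against 0.152 ± 0.0188 (SD, n = 3). Only the ratio of U2af1 to U2af2 overlapped between the groups among the 7 pairs computed. The largest shift was that of Hnrnpd over Hnrnpf, 0.786 ± 0.0610 against 0.227 ± 0.0394 (SD, n = 3).

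**Figure D4:**
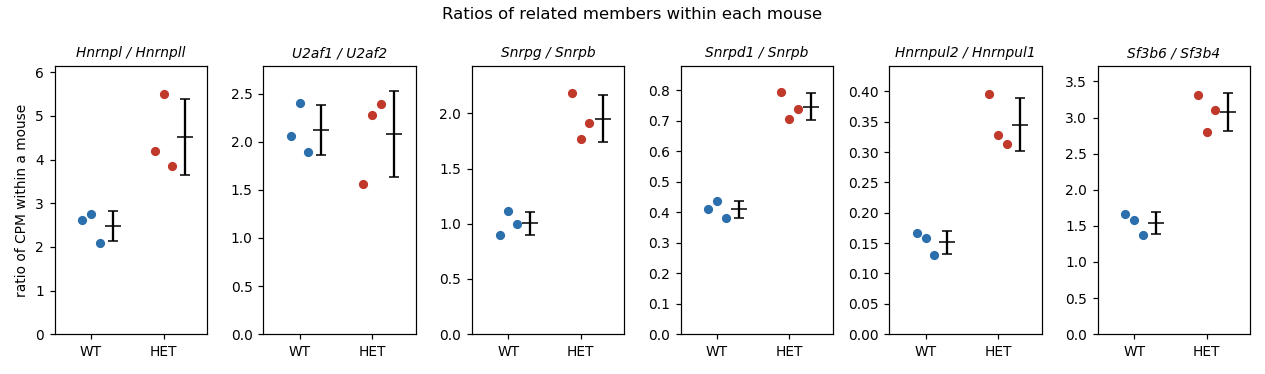
Ratio of CPM of 6 pairs of related members within each mouse (points) with the mean and SD of each group (black, n = 3 mice per group); each axis starts at 0 and WT and HET are the deposited labels. The groups are apart for 5 pairs and overlap for U2af1 over U2af2, where the means are 2.08 and 2.12.

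The comparison was also fitted in each of the 2 technical repeats, which come from the same mice. All 29 called members had the same sign in both, as had 45 of the 52 tested. The values of Snrpd1 (0.60 and 0.62), Snrpf (0.62 and 0.61), U2af1 (-0.77 and -0.74) and U2af2 (-0.73 and -0.73) on the log2 scale were close in both. Others moved more. Hnrnpab had 0.10 in the first and 0.55 in the second, Snrpb2 0.26 and 0.65, and Hnrnph2 -0.64 and -1.13. Srsf1 and Srsf2 changed sign between the repeats, from -0.08 to 0.26 and from -0.32 to 0.22. The spread between repeats was a median SD of 0.15 for the members and 0.35 for all genes on the log2 scale, and between mice 0.11 and 0.24. The SD between repeats is that of single libraries and the SD between mice that of summed repeats, so that they cannot be compared directly. Of the called members, 12 passed in every one of 17 other analyses (other scalings, filters, tests and units, single repeats, and fits without 1 mouse), namely Hnrnpa0, Hnrnpd, Snrpd1, Snrpf and Snrpg, which were higher, and Hnrnpf, Hnrnph2, Hnrnpk, Sf3a2, Sf3b4, U2af1 and U2af2, which were lower. With HET mouse 2 and WT mouse 3 both left out, an alternative added after seeing the data, 11 members were higher and 6 lower, beside 581 higher and 499 lower of all 12780 genes tested in that fit. In it, all 29 kept their sign, and U2af2 (-0.49) was the only one of those 12 that did not pass.

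**Figure D5:**
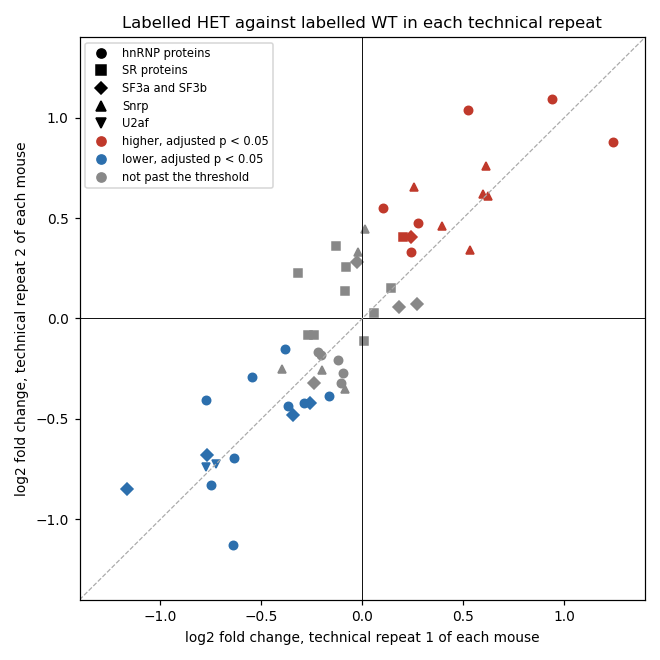
Log2 fold change (mice labelled HET against WT) of the 52 tested members in the first technical repeats (horizontal) and the second (vertical), each with 3 mice per group; shapes mark families, colours the call with both repeats summed, and the dashed line marks equal values. All 29 called members lie where both repeats are negative or both positive.

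Levels can be compared between genes only per length, and here they are normalized CPM per kilobase of exon, averaged over the 6 mice. The highest in each family were Snrpg with 435, Hnrnpab with 226, Srsf2 with 153, Sf3b6 with 78.1 and U2af1 with 49.7 normalized CPM per kilobase, and the lowest tested member was Hnrnpul2 with 4.26. The members that were higher in the mice labelled HET had shorter exon unions, with a median of 2818 bases, than those that were lower, with 4369, or those not called, with 4810. Snrp genes are short (median 2618 bases) and hnRNP genes long (5898 bases). Across the 52 members, Spearman's rho of the log2 fold change was -0.21 with exon length, -0.17 with GC content and -0.26 with the number of exons. Across all genes it was -0.01 with exon length and -0.15 with GC content. GC content and exon number are those of the longest annotated transcript, which can hold fewer exons than the gene, as for Snrpa with 1. The rho values are descriptions across genes of the same libraries, and genes are not independent replicates. When trends with GC content and length were removed in each mouse, all 29 calls stayed, and Hnrnpc, Hnrnph1, Hnrnpr, Hnrnpu and Srsf3 were called lower as well. The size of the differences moved, from 0.61 to 0.38 for Snrpf and from 0.41 to 0.28 for Snrpe, and the median of the Snrp genes went from 0.41 to 0.28 and that of the hnRNP genes from -0.21 to -0.32 (log2).

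Genes of the same machinery outside the naming rule were called in both directions. Over the 102 tested genes of the lists described next, 19.6% were higher and 15.7% lower, against 9.17% and 8.82% of all genes and 15.2% and 16.0% of the genes outside the rule in the members' range of levels. Of 53 tested genes of other snRNP and core spliceosome proteins, 9 were higher and 4 lower, with a median log2 fold change of 0.02. Lsm3, Lsm5, Lsm6, Lsm7 and Lsm8, whose proteins belong to the ring on U6 snRNA that resembles the Sm ring, were among the higher ones, with log2 fold changes from 0.31 for Lsm8 to 0.68 for Lsm7. The other two genes of that ring, Lsm2 (0.19 ± 0.11) and Lsm4 (-0.02 ± 0.10), did not pass (log2, SE). Lsm5 and Lsm8 each lost the call in 5 of the 6 fits that left out a mouse. Without WT mouse 2 the list held 5 higher genes, with Lsm6 and Lsm7 of the ring, and on the log2(TPM + 1) scale 3, with Lsm7 alone of the ring. Prpf8, the scaffold of the spliceosome's active site, was higher too (0.55 ± 0.10, log2, SE), with Snrnp27, Snrnp48 and Txnl4a. Among the fits that left out a mouse, Txnl4a kept its call only without HET mouse 1 and without WT mouse 3. It did not pass in technical repeat 2 alone or on either log2(TPM) scale. Snrnp70, which encodes the U1 snRNP protein that binds the U1 RNA, was at 110, 116 and 109 normalized CPM in the mice labelled HET and at 193, 180 and 187 in those labelled WT (-0.74 ± 0.10, log2, SE). Sf1, which binds the branch point before U2 snRNP does, was lower as well (-0.57 ± 0.11, log2, SE), with Ddx39b and Usp39. Ddx39b kept its call without HET mouse 3 and without WT mouse 1 but in no other fit that left out a mouse. Nor did it pass with upper-quartile scaling, in either technical repeat alone or with GC and length trends removed.

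Of 29 other splicing regulators, 7 were higher and 9 lower. The counts were 2 and 9 on the log2(TPM + 1) scale, 3 and 9 on the log2(TPM + 0.1) scale and 6 and 5 with technical repeat 2 alone, and Luc7l3 kept its call in 1 of the 6 fits that left out a mouse. The higher ones were Qk, Tial1, Rbm25, Son, Pcbp2, Luc7l2 and Luc7l3, and the lower ones included Tra2a, Ptbp1, Khdrbs1, Ewsr1, Pcbp1, Raly, Fubp1 and Elavl1. Pcbp2 and Pcbp1, C-binding relatives of hnRNP K, were called in opposite directions, with log2 fold changes of 0.93 ± 0.11 and -0.43 ± 0.09 (SE). Ptbp1, which encodes the polypyrimidine tract-binding hnRNP I, had -0.67 ± 0.09 (log2, SE). Among 9 genes for kinases of SR proteins and for nuclear import receptors, Srpk2, Prpf4b, Clk1 and Clk2 were higher, led by Clk2 (1.03 ± 0.18, log2, SE). Clk3 and the import receptor gene Tnpo1 were lower. Tnpo3, which encodes the import receptor of SR proteins, did not pass (0.22 ± 0.12, log2, SE). This list held 3 higher and 0 lower with technical repeat 1 alone and without WT mouse 3, 2 higher and 1 lower without HET mouse 1, 4 higher and 0 lower without HET mouse 2, and Clk2 alone on both log2(TPM) scales. Clk3 kept its call in 1 of the 6 fits that left out a mouse. Of 11 tested genes of the machinery that loads Sm rings onto snRNA, 0 were higher and 1, Strap, was lower (-0.56 ± 0.12, log2, SE) by edgeR. DESeq2 gave the same counts, and at an unadjusted p under 0.05 there were 2 higher genes (Gemin6 and Gemin7). Gemin7 was called higher with GC and length trends removed, without and with the replicate block, and Gemin6 without HET mouse 2.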

How the data were processed

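RNA-seq by SMART-Seq2 on polyA RNA gave 12 libraries, 2 technical repeats for each of 3 mice labelled HET and 3 labelled WT. Per the study's methods, the authors aligned reads with HISAT2 2.2.1 to GRCm38 (mm10 in the submitters' processing notes) and counted them per gene with HTSeq; the annotation release and strand setting are not given in the sources used here. The deposited counts are whole numbers, not normalized. The authors also deposited TPM values, whose making is not described. No column was left unmapped.

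Repeats were summed per mouse. Counts were tested with edgeR 4.0.16 (R 4.3.3; filterByExpr, TMM normalization, quasi-likelihood test, Benjamini-Hochberg adjustment over 12719 genes, call at an adjusted p under 0.05). Normalized CPM are counts divided by the TMM-scaled library total and scaled to a common size. Symbols were matched to GENCODE M21 (GRCm38) for exons, length and GC content, 23801 of 24561 exactly and 240 through another symbol, and to RefSeq promoter windows. The test was checked on simulated counts with 200 genes changed 2-fold. Of the changed genes that passed the filter, 69.2% were recovered, and 6.9% of the calls were unchanged genes. DESeq2 1.42.0, limma 3.58.1 on log2(TPM + 1) and log2(TPM + 0.1), other scalings and filters, single repeats, fits without 1 of the mice, offsets for GC content and length, and a replicate block were alternatives. Fits without HET mouse 2 and WT mouse 3 together, and shares on the TMM-scaled total, were added after seeing the data.

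Named were every called member, with full values for the 6 of smallest p in each direction, the member of highest level per length in each family, and 7 members with known roles in T cells (Hnrnpll, Hnrnpl, Srsf1, Srsf2, Srsf3, Sf3b1 and U2af1). The members, gene lists and tests were chosen with earlier results of these data known. The counts of a library set its counting error only.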

Additional observations from a re-analysis of the deposited data

Results flagged for a closer look

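Among 36 sets of 6 libraries (family shares and the 12 leading members, each within a labelled genotype), 2 held a library far from the others by Dixon's criterion, where chance alone gives about 1.8. The first technical repeat of WT mouse 2 had 0.172% of its counts on the SF3a and SF3b genes, against a median of 0.199% in the other 5 libraries labelled WT. The second technical repeat of WT mouse 3 had 17.5 CPM of Hnrnpul2, against a median of 22.9 CPM in the others. Leaving out WT mouse 2 or WT mouse 3 did not end the call of Hnrnpul2, Sf3a2, Sf3b2 or Sf3b4, whereas Sf3a3 and Sf3b6 did not pass without WT mouse 3.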

How the results depend on the processing

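All 29 called members kept their sign in each of 17 alternatives, and 12 kept their call in all. The 14 higher and 15 lower calls became 6 and 10 with technical repeat 1 alone, 7 and 15 with log2(TPM + 1) and 6 and 15 with log2(TPM + 0.1), where the median of the members was -0.22 on either scale and that of all genes fell to -0.07 and -0.11. On these scales 390 and 374 genes in all were higher and 915 and 886 lower, against 1166 and 1122, and with technical repeat 1 alone 547 and 512. Without 1 mouse, 9 to 13 members were higher and 9 to 16 lower, beside 730 to 965 and 694 to 1007 of all genes. The fewest were 9 higher without WT mouse 1 and 9 lower without WT mouse 3. With HET mouse 2 and WT mouse 3 both left out, an alternative added after seeing the data, 11 were higher and 6 lower, beside 581 and 499 of all genes. The cause was not tested. Srsf1, never called, turned negative with repeat 1 alone (-0.082) and on both TPM scales (-0.022 and -0.022), and ran from -0.0019 to 0.15 without 1 mouse. Srsf2, never called either, turned positive with upper-quartile scaling (0.0061), with repeat 2 alone (0.22), and with GC and length trends removed, without and with the replicate block (0.050 and 0.049), with those 2 mice left out (0.034), and ran from -0.072 to 0.011 without 1 mouse. Mouse numbers did not pair the samples: correlations of same-numbered mice were 0.08, -0.03 and 0.02, and only the first pair correlated best with its own number. With the replicate block, 14 members were higher and 17 lower. With 3 mice per group, members near the threshold, such as Hnrnpl, which passed, and Snrpb, which did not, are the least certain.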
